A study of Homo sapiens with 6 samples.

Results

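The expression of 10 basement membrane genes was followed in Mum-2b, a uveal melanoma cell line, after knockdown of NELFCD with a short hairpin RNA. They are the laminin chains LAMA4, LAMA5, LAMB1 and LAMC1, the collagen IV chains COL4A1 and COL4A2, the nidogens NID1 and NID2, and the heparan sulfate proteoglycans HSPG2 (perlecan) and AGRN (agrin). These are 10 of the 58735 genes in the deposited tables, and they were chosen by name, with the difference between knockdown and control already known for them. Their values in that contrast are therefore given as a description, and the adjusted p-values beside them say where each gene stood in a fit over all genes without being independent evidence. RNA was sequenced from 3 libraries of NELFCD knockdown cells and 3 libraries of control cells of wild-type genotype. The knockdown titles carry 1 hairpin number, so the target and that hairpin's off-targets cannot be told apart, and the labels do not say what, if any, hairpin the control cells carried or whether replicates were separate cultures. RNA came from either TRNzol reagent or a Quick-RNA column kit, with no record of which library used which, and libraries were made with a SMARTER kit.

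A basement membrane is a thin sheet of extracellular matrix under epithelia and endothelia and around muscle, fat and nerve cells. Laminins, cross-shaped trimers of an alpha, a beta and a gamma chain, polymerise on the cell surface and bind integrins and dystroglycan through the alpha chain. Collagen IV forms the other network of the sheet, nidogens bind the laminin gamma chain to it, and perlecan and agrin carry the heparan sulfate chains that hold growth factors. In cultures of aggressive uveal melanoma lines, laminin-rich matrix is a known part of the patterned networks called vasculogenic mimicry.

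Total counts were 14306733 to 16656630 per library, and all 10 genes passed the filter on low counts that left 14844 genes for testing. NELFCD stood at 20.7, 37.4 and 40.3 CPM (counts scaled to library size) in knockdown replicates 1 to 3, against 65.5, 88.3 and 83.5 CPM in control replicates 1 to 3, which is 41.5% of the control mean (exact two-sided permutation p = 0.1, the smallest that 3 against 3 libraries allow). The libraries numbered 1, knockdown and control, stood away from those numbered 2 and 3, and 61.8% of all genes tested differed between them. The 10 genes are therefore given both without the replicate number in the model and with it as a block, and genes outside the 10 with the block. Blocked, the log2 fold change of NELFCD was -1.30 ± 0.11 (SE, edgeR adjusted p = 0.00046), and unblocked it was -1.27 (0.53). Of 8 melanocyte lineage genes, 5 were too low to be tested, TYR, DCT and S100B averaged under 0.1 CPM, and the 8 summed to 7.61 to 18.3 CPM in knockdown libraries and 7.50 to 10.8 CPM in control libraries. The lineage genes MITF and TYRP1 averaged 3.38 and 4.66 CPM. Of 8 epithelial markers, the keratins KRT8 and KRT18 averaged 774 and 432 CPM and CLDN4 34.9 CPM. The other epithelial markers, EPCAM, CDH1, KRT19, ESRP1 and GRHL2, averaged 0 to 0.368 CPM.

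Per length, 7 of the 10 genes were abundant and 3 were scarce. The deposited FPKM, which divides fragments by gene length and library depth, put LAMC1 first, with a median of 47.1 over the 6 libraries (range 40.8 to 73.3). AGRN (median 43.6 FPKM), LAMA5 (40.7 FPKM) and LAMB1 (31.7 FPKM) followed. Neighbours in this order overlapped in range, although LAMA5 lay above LAMB1, and AGRN above LAMA5, in each of the 6 libraries. COL4A2 (median 23.1 FPKM), NID1 (18.1 FPKM) and COL4A1 (14.04 FPKM) formed the next step, and the lowest LAMB1 library (25.9 FPKM) lay above the highest COL4A2 library (25.3 FPKM). A wide gap separated these from LAMA4 (median 1.24 FPKM), HSPG2 (0.206 FPKM) and NID2 (0.140 FPKM), since the lowest COL4A1 library had 12.2 FPKM and the highest LAMA4 library 2.04 FPKM.

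**Figure D1:**
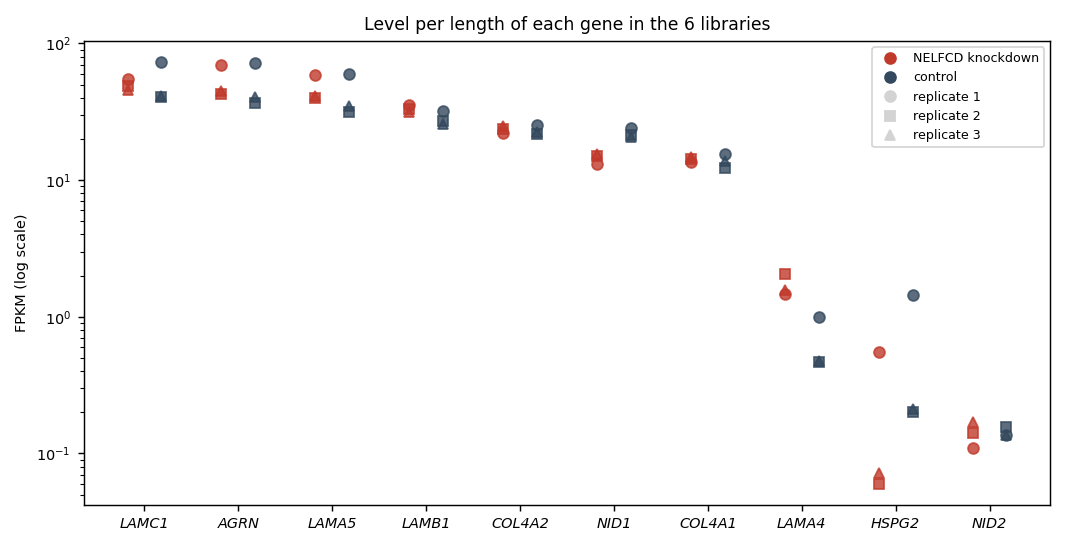
Deposited FPKM (log axis) of the 10 basement membrane genes in each library, knockdown to the left of control, genes ordered by their median. Medians run from 47.1 FPKM for LAMC1 to 14.04 FPKM for COL4A1, and then drop to 1.24 FPKM for LAMA4 and 0.140 FPKM for NID2.

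Among the 10 genes, LAMA4 and LAMB1 rose, NID1 and HSPG2 fell, and the other 6 were not called when edgeR blocked on replicate number. That is 4 of 10, where 13.5% of all 14844 genes were called (5.48% rising and 8.01% falling). Without the replicate number, 0 of the 10 and 0% of all genes were called by edgeR. An unadjusted p under 0.05 was found for 2 of the 10 (LAMA4 and NID1) and for 954 of all 14844 genes. DESeq2 called those 2, beside 50 rising and 111 falling of all 14844, and limma-voom called 0 of the 10 and 0 of all genes. In replicates 2 and 3 alone, 7 of the 10 rose and 2 fell, with 25.3% of all genes called. The groups did not overlap in CPM for 2 of the 10, LAMA4 and NID1, against 14.9% of all genes. The median log2 difference of the 10 genes was 0.06 in the blocked fit, beside 0.0001 over all genes. In a bulk library, fewer cells that carry a transcript and less of it per cell cannot be told apart.

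LAMA4 encodes the laminin alpha chain of vascular, muscle and fat basement membranes, and it had the largest rise of the 10. It is a gene of 11575 exonic bases on chromosome 6 (112108760 to 112254939, minus strand, hg38). LAMA4 stood at 17.8, 23.7 and 18.2 CPM in knockdown replicates 1 to 3, against 11.8, 5.38 and 5.50 CPM in control replicates 1 to 3. Every knockdown library lay above every control library, and the highest control was replicate 1. The 95% Poisson interval of that highest control library (10.1 to 13.7 CPM, 172 counts) lay below that of the lowest knockdown library (15.7 to 20.1 CPM, 268 counts). LAMA4 averaged 19.9 ± 3.28 CPM in knockdown cells and 7.56 ± 3.66 CPM in control cells (SD, n = 3 each). The log2 fold change was 1.44 ± 0.28 (SE) with the replicate block (edgeR adjusted p = 0.022) and 1.40 ± 0.36 without it (adjusted p = 0.58). By replicate pair, LAMA4 was 1.51-fold, 4.40-fold and 3.31-fold of control, so the difference was smallest in pair 1. Of its exonic bases, 1.78% lie in exons of an antisense gene, which had 0 CPM in each library.

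LAMA5 is the broadly expressed alpha chain of epithelial and endothelial basement membranes, and it dominated the alpha chains of this line. It had 869, 570 and 597 CPM in knockdown replicates 1 to 3, against 871, 450 and 498 CPM in control replicates 1 to 3. Replicate 1 of both groups was high and the groups overlapped. The blocked log2 fold change was 0.20 ± 0.07 (SE, edgeR adjusted p = 0.10), beside -0.0035 in pair 1, 0.34 in pair 2 and 0.26 in pair 3. Without the block it was 0.16 ± 0.31 (adjusted p = 1). LAMA5 passed in replicates 2 and 3 alone (log2 fold change 0.30, edgeR adjusted p = 2.9e-09).

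The alpha chains therefore shifted in proportion. LAMA4 made up 2.37%, 4.63% and 3.47% of the summed FPKM of LAMA1 to LAMA5 in knockdown replicates 1 to 3, against 1.55%, 1.38% and 1.28% in control replicates 1 to 3. The mean share was 3.49 ± 1.13% in knockdown cells and 1.41 ± 0.14% in control cells (SD, n = 3 each), and the groups did not overlap. LAMA5 still held 91.9 ± 1.64% in knockdown cells and 93.4 ± 0.36% in control cells, and LAMA3, the alpha chain of epidermal laminin, held 3.84 ± 0.22% in knockdown cells and 4.65 ± 0.56% in control cells. LAMA1 and LAMA2, chains of embryonic and muscle basement membranes, stayed under 0.6% in every library.

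LAMB1 and LAMC1 are a beta and a gamma chain that pair with LAMA4 and LAMA5. LAMB1 had 300, 270 and 258 CPM in knockdown replicates 1 to 3, against 264, 217 and 210 CPM in control replicates 1 to 3. Knockdown lay above control in each pair, although control replicate 1 lay above knockdown replicate 3. The blocked log2 fold change of LAMB1 was 0.26 ± 0.06 (SE, edgeR adjusted p = 0.022), a 1.20-fold difference, and without the block it was 0.26 ± 0.15 (adjusted p = 0.93). Leaving out pair 2 ended the blocked call (adjusted p = 0.21), as did leaving out pair 3 (0.2).

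LAMC1 had 479.8, 408 and 387 CPM in knockdown replicates 1 to 3, against 628, 341 and 344 CPM in control replicates 1 to 3. Control replicate 1 was the highest of the 6 libraries and the other controls were the lowest. The pairs disagreed in direction, with LAMC1 at 76.4% of control in pair 1 and at 119.7% and 112.4% in pairs 2 and 3. The blocked log2 fold change was 0.01 ± 0.12 (SE, edgeR adjusted p = 0.96), and without the block the sign turned, at -0.04 ± 0.28 (adjusted p = 1). LAMC1 passed in replicates 2 and 3 alone (log2 fold change 0.21, edgeR adjusted p = 2.3e-06), as LAMB1 did (0.30, adjusted p = 5e-09). The FPKM ratio of LAMC1 to LAMB1 was 1.55, 1.46 and 1.45 in knockdown replicates 1 to 3, against 2.30, 1.52 and 1.59 in control replicates 1 to 3.

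**Figure D2:**
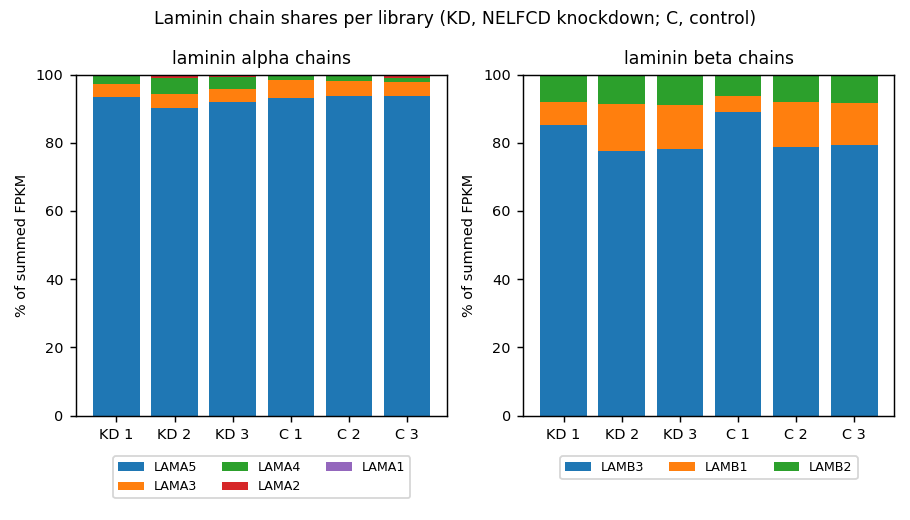
Share of each laminin alpha and beta chain in the summed FPKM of its class, per library (stacked bars, knockdown left of control). LAMA5 holds over 90% of the alpha chains throughout, LAMA4 holds 2.37% to 4.63% in knockdown libraries and 1.28% to 1.55% in control libraries, and LAMB3 holds 77.6% to 85.1% of the beta chains in knockdown libraries and 78.9% to 89.1% in control libraries.

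Among the beta chains LAMB1 was outweighed by LAMB3, the beta chain of the laminin that anchors epidermal cells. LAMB1 made up 6.80%, 13.8% and 13.1% of the summed beta chain FPKM in knockdown replicates 1 to 3, against 4.61%, 13.0% and 12.4% in control replicates 1 to 3. LAMB3 held 80.3 ± 4.18% in knockdown cells and 82.5 ± 5.80% in control cells (SD, n = 3 each). LAMB2 held 8.50 ± 0.35% in knockdown cells and 7.51 ± 1.10% in control cells, and lay above LAMB1 in replicate 1 of both groups. The LAMB1 share was lowest in replicate 1 of both groups and was higher in the knockdown in each pair. LAMB3 had a blocked log2 fold change of -0.02 (edgeR adjusted p = 0.95).

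COL4A1 and COL4A2, the chains of the common collagen IV trimer, kept close to each other, and their knockdown means lay close to their control means. COL4A1 had 209, 211 and 219 CPM in knockdown replicates 1 to 3, against 232, 179 and 202 CPM in control replicates 1 to 3. COL4A2 had 445, 459 and 483 CPM in knockdown replicates 1 to 3, against 497, 418 and 433 CPM in control replicates 1 to 3. In both genes control replicate 1 was the highest library and control replicate 2 the lowest, so the knockdown values lay inside the control range. Blocked log2 fold changes were 0.07 ± 0.08 for COL4A1 (SE, edgeR adjusted p = 0.61) and 0.04 ± 0.07 for COL4A2 (adjusted p = 0.73). Without the block they were 0.06 ± 0.14 and 0.04 ± 0.13 (adjusted p = 1 for both). Both genes passed as rising in replicates 2 and 3 alone (log2 fold change 0.17 and 0.14, edgeR adjusted p = 0.0021 and 0.00084). In pair 1 both were below control. The FPKM ratio of COL4A2 to COL4A1 was 1.66 ± 0.03 in knockdown cells and 1.69 ± 0.08 in control cells (SD, n = 3 each). Of the summed collagen IV FPKM, COL4A2 held 56.6 ± 1.83% and COL4A1 34.1 ± 0.54% in knockdown cells, against 56.9 ± 1.51% and 33.8 ± 0.87% in control cells (SD, n = 3 each). COL4A5, a chain of kidney and eye basement membranes, held most of the rest.

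These genes lie head to head on chromosome 13, with RefSeq start sites 127 bases apart. The stretch between the start sites is shown because the RefSeq transcripts run outward from it (GRCh38.p14, chr13:110307158-110307283, plus strand, RefSeq). It is 126 bases long, 80.2% G or C, and the capitals mark a CCAAT box and a GC box (GGGCGG). In GENCODE the gene COL4A1 starts at 110307233, inside this stretch, and COL4A2 at 110305812, so the gene spans overlap. The stretch thus lies between the RefSeq starts only.
COL4A1-COL4A2: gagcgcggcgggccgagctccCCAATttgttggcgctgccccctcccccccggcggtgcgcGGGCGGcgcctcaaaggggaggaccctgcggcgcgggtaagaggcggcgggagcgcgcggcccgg

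Of the nidogens, NID1 was abundant and fell, and NID2 was scarce. NID1 (chromosome 1, 235975830 to 236065162, minus strand, hg38) had 79.6, 88.9 and 90.9 CPM in knockdown replicates 1 to 3, against 143, 124 and 121 CPM in control replicates 1 to 3. Every knockdown library lay below every control library. NID1 averaged 86.4 ± 6.04 CPM in knockdown cells and 129 ± 11.6 CPM in control cells (SD, n = 3 each), which is 66.8% of control, and the pairs stood at 55.7%, 71.6% and 74.9%. The log2 fold change was -0.58 ± 0.09 (SE) with the replicate block (edgeR adjusted p = 0.0052) and -0.58 ± 0.13 without it (adjusted p = 0.53). NID1 was the one member called in each of the 13 fits that took the replicate number into account or left replicate 1 out. LAMA4 and HSPG2 were called in 11 of them each and LAMB1 in 9. These fits reuse the same libraries, so their agreement is not independent evidence. The share of all genes called in all 13 was not counted. Relative to its laminin partner, the FPKM ratio of NID1 to LAMC1 was 0.30 ± 0.05 in knockdown cells and 0.45 ± 0.11 in control cells (SD, n = 3 each). In single libraries that ratio ran from 0.238 to 0.337 in the knockdown and from 0.326 to 0.522 in the control, so the groups overlapped.

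NID2 was near the lower limit of what these libraries could measure, with 11 to 16 counts in knockdown libraries and 13 to 14 in control libraries. That is 0.731 to 1.10 CPM in knockdown cells and 0.876 to 0.991 CPM in control cells. The Poisson interval of a single library spanned 0.365 to 1.31 CPM at the lowest, and the blocked log2 fold change was -0.02 ± 0.37 (SE, edgeR adjusted p = 0.98; without the block -0.01 ± 0.30, adjusted p = 1), so a difference the size of that in NID1 was not detectable at this depth. In addition, 30.0% of the exonic bases of NID2 lie in exons of RTRAF on the other strand, a gene at 73.95 to 103.3 CPM over the 6 libraries. Whether counting used strand is not given, so the source of the NID2 counts is uncertain.

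Of the proteoglycans HSPG2 was called and AGRN was not. HSPG2, perlecan, had 10.5, 1.09 and 1.30 CPM in knockdown replicates 1 to 3, against 26.7, 3.61 and 3.81 CPM in control replicates 1 to 3. Within each number knockdown was lower, at 39.4%, 30.2% and 34.1% of control, but knockdown replicate 1 lay above control replicates 2 and 3. The libraries of replicates 2 and 3 held 18 and 19 counts in the knockdown and 51 and 61 in the control, and their Poisson intervals (0.646 to 2.03 CPM and 2.69 to 4.90 CPM) did not touch. The blocked log2 fold change was -1.47 ± 0.17 (SE, edgeR adjusted p = 0.0018). Without the block it was -1.40 ± 1.19 (adjusted p = 1.0), and it turned to 0.21 when control replicate 1 alone was left out. LDLRAD2, which shares 11.7% of the exonic bases of HSPG2 on the other strand, had at most 0.069 CPM.

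AGRN, the proteoglycan that organises the neuromuscular junction and also occurs in other basement membranes, had 776, 458 and 484 CPM in knockdown replicates 1 to 3, against 782, 395 and 437 CPM in control replicates 1 to 3. The groups overlapped, with replicate 1 high in both. Its blocked log2 fold change was 0.12 ± 0.06 (SE, edgeR adjusted p = 0.25), and without the block it was 0.09 ± 0.34 (adjusted p = 1). AGRN passed in replicates 2 and 3 alone (log2 fold change 0.18, edgeR adjusted p = 0.00024).

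**Figure D3:**
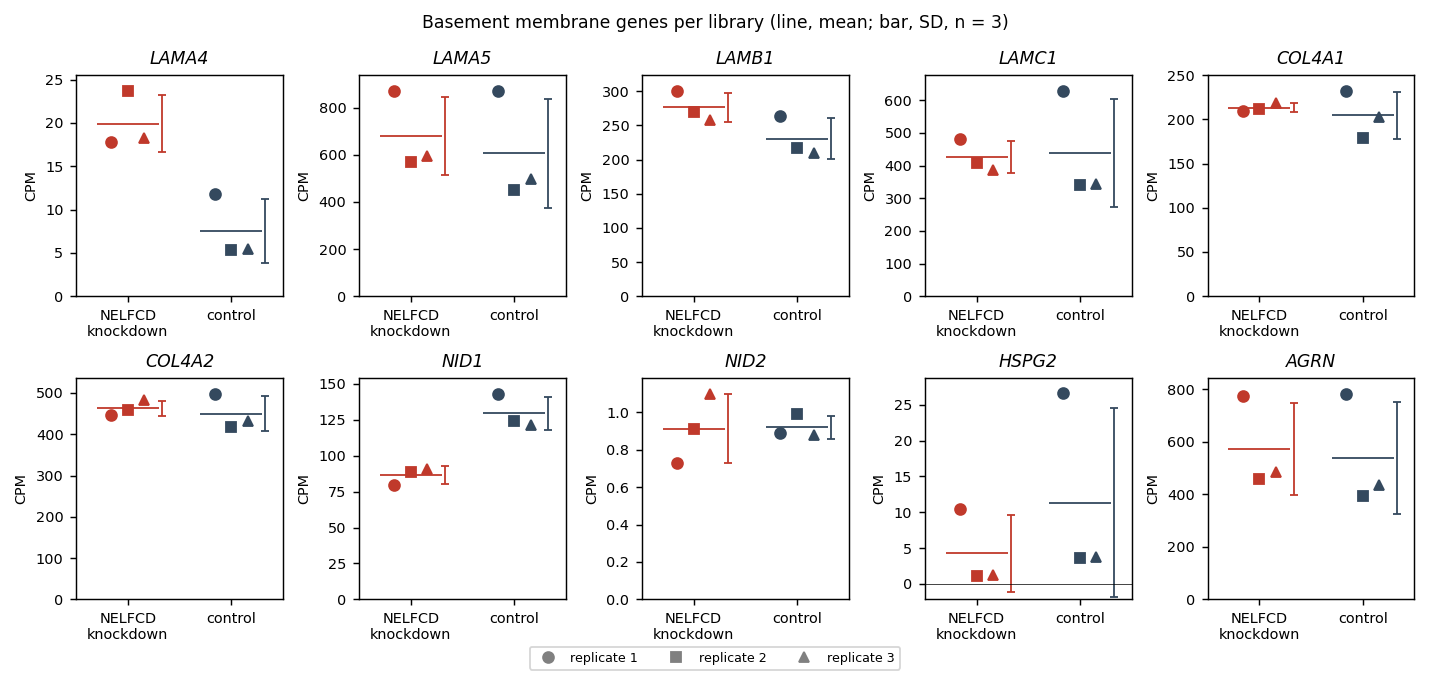
CPM of each of the 10 genes in the 3 knockdown libraries (left, red) and the 3 control libraries (right, dark), with the group mean and SD; marker shapes give the replicate number and each panel has its own linear axis. LAMA4 and NID1 are the genes whose groups do not overlap, LAMA4 at 17.8 to 23.7 CPM in knockdown and 5.38 to 11.8 CPM in control libraries, NID1 at 79.6 to 90.9 CPM in knockdown and 121 to 143 CPM in control libraries.

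The knockdown difference was not the same in each replicate pair, where pair 1 is 1 knockdown and 1 control library. In pair 1 the median log2 difference of the 10 genes was -0.15, and in pairs 2 and 3 it was 0.23 and 0.16. Medians over all genes were not computed by pair. An interaction of knockdown with replicate 1 was called by edgeR for 7 of the 10 genes, where it was called for 13% of all genes. DESeq2 called 2 of the 10, and its share over all genes was not counted. In 9 of the 10 the difference was lower in pair 1 than in pairs 2 and 3. The share of all genes with that sign was not counted, so the 9 cannot be set against it. The difference was lower by 1.35 on the log2 scale for LAMA4 (log2 interaction -1.35 ± 0.24, SE) and by 0.60 for LAMC1 (log2 interaction -0.60 ± 0.06). COL4A1, COL4A2 and LAMC1 were below control in pair 1 and above it in pairs 2 and 3, as were LAMA5 and AGRN, whose log2 differences in pair 1 were -0.0035 and -0.0108. HSPG2 (0.29 ± 0.35), LAMB1 (-0.12 ± 0.07) and NID2 (-0.38 ± 0.90) were not called. These p-values rest on 2 residual degrees of freedom and on the small spread between replicates 2 and 3, and they come from the contrast that was known when the genes were chosen.

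**Figure D4:**
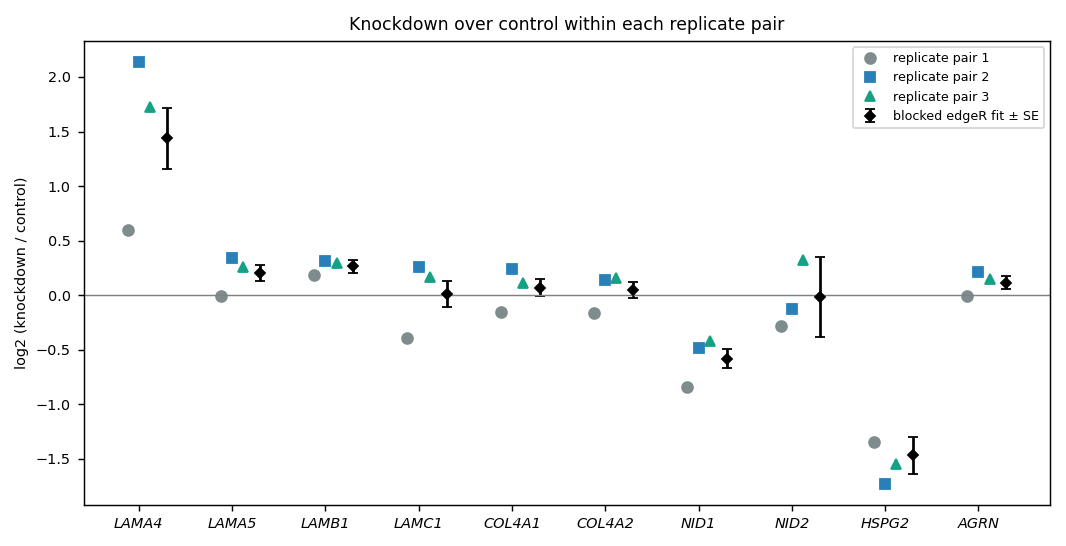
Log2 ratio of knockdown to control CPM within replicate pairs 1 to 3 (coloured markers), with the blocked edgeR estimate and its SE (black), for each of the 10 genes. LAMA4 and LAMB1 lie above 0 and NID1 and HSPG2 below 0 in all 3 pairs, while LAMC1, COL4A1 and COL4A2, and by a narrow margin LAMA5 and AGRN, lie below 0 in pair 1 only.

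Between replicate 1 and replicates 2 and 3, 5 of the 10 genes were higher in replicate 1 and 0 were lower (edgeR with group and replicate 1 as terms). Over all genes, 31.6% were higher. The genes were chosen with results of these same libraries known and the replicate number considered, so this count is a description too. The count of genes that differed changed when knockdown replicate 1 was left out. Control replicate 1 is then the only library of replicate 1, so that count is not given. HSPG2 differed most, with a log2 difference of 2.95 ± 0.16 (SE, adjusted p = 5.9e-09), a 7.71-fold higher level in replicate 1. AGRN (0.82 ± 0.06), LAMA5 (0.73 ± 0.07), LAMC1 (0.58 ± 0.13) and LAMB1 (0.25 ± 0.05) were the others. COL4A1 (0.12 ± 0.08), COL4A2 (0.07 ± 0.07) and NID1 (0.03 ± 0.08) differed little between replicates, with adjusted p from 0.18 to 0.76, and LAMA4 (0.34 ± 0.31) and NID2 (-0.25 ± 0.39) had wide errors. For HSPG2, AGRN, LAMA5, LAMC1, COL4A1, COL4A2 and NID2 the replicate estimate was thus larger in size than the blocked knockdown estimate. For NID1 and LAMA4 it was smaller, and for LAMB1 the estimates were close (0.25 and 0.26). The difference between these estimates was not tested.

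**Figure D5:**
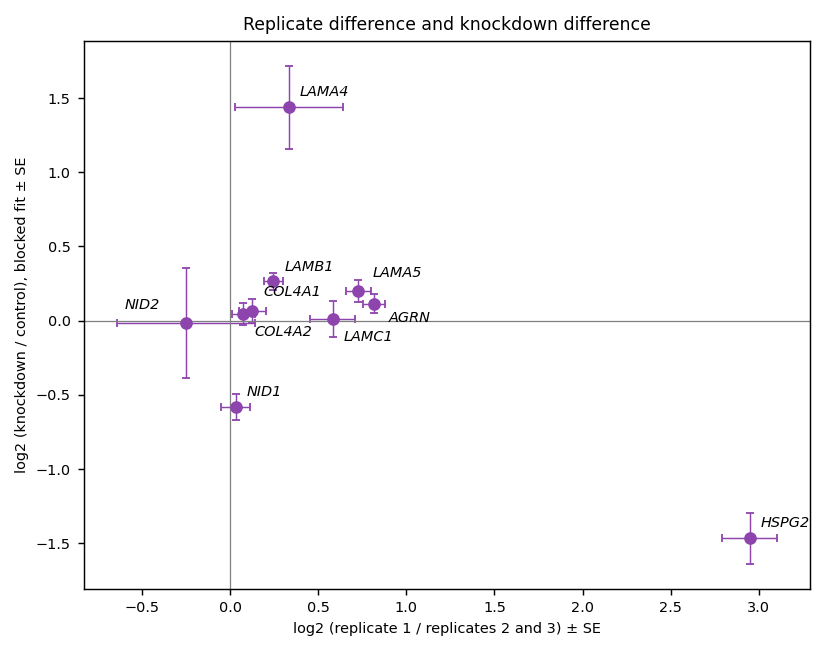
Blocked log2 fold change of knockdown over control (vertical) against the log2 difference of replicate 1 over replicates 2 and 3 (horizontal), with SE, for the 10 genes. HSPG2 sits far right at 2.95 and at -1.47, and NID1 lies near the vertical zero line at -0.58. LAMA4 stands highest at 1.44, with a replicate difference of 0.34 ± 0.31.

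The sequence before the start site of LAMA4 was poorer in G and C than that of the other genes. RefSeq promoters of 9 of the 10 genes were matched (GRCh38.p14), and the 250 bases before the start site were compared with those of 35116 promoters. LAMA4 had 48.4% G or C and 5 CpG dinucleotides, against a median of 58.0% and 11 over all promoters. The other 8 had 68.0% (NID2) to 82.8% (LAMA5 and HSPG2) G or C and 18 to 40 CpG dinucleotides. A GC box (GGGCGG, either strand) was found in those 8 and not in LAMA4, and in 42.6% of all promoters. HSPG2 had 8 overlapping or separate matches, the most of the 9. A CCAAT box was found in COL4A1, COL4A2, NID1 and NID2 and in 32.0% of all promoters, where COL4A1 and COL4A2 share the same match. None of the 9 held TATAAA, the AP-1 letters TGANTCA or the TEAD letters GGAATG, found in 10.7%, 6.6% and 11.9% of all promoters.

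The upstream bases of the gene with the largest rise and of the genes that fell are printed to show this contrast, each 250 bases long, from RefSeq and on the minus strand. They are LAMA4 (chr6:112254568-112254817), NID1 (chr1:236065091-236065340) and HSPG2 (chr1:21937311-21937560). GENCODE places the start of LAMA4 and of NID1 inside or beyond its window, so the window is upstream only of the RefSeq start. Capitals mark matches to the CCAAT box and the GC box on either strand.
LAMA4: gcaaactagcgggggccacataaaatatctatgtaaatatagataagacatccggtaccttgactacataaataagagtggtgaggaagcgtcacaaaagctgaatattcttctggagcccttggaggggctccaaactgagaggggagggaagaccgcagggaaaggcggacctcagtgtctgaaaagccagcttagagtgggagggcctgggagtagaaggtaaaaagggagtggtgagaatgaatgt
NID1: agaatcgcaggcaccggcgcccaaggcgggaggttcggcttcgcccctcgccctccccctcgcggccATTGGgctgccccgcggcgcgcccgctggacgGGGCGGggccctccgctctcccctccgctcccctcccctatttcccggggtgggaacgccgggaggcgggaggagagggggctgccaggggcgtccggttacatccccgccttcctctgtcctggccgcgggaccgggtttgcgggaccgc
HSPG2: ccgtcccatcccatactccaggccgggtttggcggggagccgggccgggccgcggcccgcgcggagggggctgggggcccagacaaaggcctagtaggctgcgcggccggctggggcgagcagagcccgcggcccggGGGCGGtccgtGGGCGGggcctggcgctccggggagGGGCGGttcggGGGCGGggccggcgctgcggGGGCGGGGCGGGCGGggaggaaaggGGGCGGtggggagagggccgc

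Genes of similar pattern were sought by the root mean square difference of centred log2 CPM over the 6 libraries, among 12159 other protein-coding genes. COL4A2 ranked 5 for COL4A1 (0.05 log2 apart) and COL4A1 ranked 14 for COL4A2. AGRN ranked 8 for LAMA5 (0.07 log2) and LAMA5 ranked 20 for AGRN. For LAMA4 the nearest gene of the set, LAMB1, ranked 489 (0.68 log2), and the 3 nearest of all were TESMIN, HEPHL1 and PCDHGB2 (0.294 to 0.325 log2). LAMB1 was nearest to SYNJ1, TNFRSF10A and FLNA (0.03 to 0.04 log2), and COL4A1 to HSPBAP1, NADK2 and FBXL12 (0.03 to 0.04 log2). The single nearest genes of the others were MIA2 for LAMA5, KLHDC2 for LAMC1, AHNAK for COL4A2, CKAP4 for NID1, FGFR1OP for NID2, MRC2 for HSPG2 and NAGK for AGRN. These profiles follow the replicate number as well as the knockdown.

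Beside the 10 genes, lists of related genes were counted in the blocked fit, in which 5.48% of all genes rose and 8.01% fell. Of 16 other basement membrane chains 12 were tested, and with the replicate block 2 fell, 0 rose and 10 did not pass (median log2 fold change -0.04). COL18A1, the chain whose end fragment is endostatin, fell to 4.41 CPM in knockdown cells, against 7.96 CPM in control cells (log2 fold change -0.85 ± 0.17, SE, edgeR adjusted p = 0.014). LAMB2 (0.21, adjusted p = 0.11) and LAMB3 did not pass. Of 16 associated proteins 10 were tested, of which 1 rose and 1 fell (median -0.12). FRAS1, an adhesion protein of the epidermal basement membrane, rose to 43.9 CPM in knockdown cells, against 27.6 CPM in control cells (0.63 ± 0.10, adjusted p = 0.0064). The fibulin FBLN1 fell to 11.4 CPM in knockdown cells, against 24.6 CPM in control cells (-1.12 ± 0.13, adjusted p = 0.0016). SPARC (-0.04, adjusted p = 0.75) and the collagen IV crosslinking enzyme PXDN (-0.36, adjusted p = 0.27) did not pass.

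In the blocked fit, receptors were called in the falling direction alone. Of 15 laminin and basement membrane receptors 14 were tested, and 6 fell, 0 rose and 8 did not pass (median log2 fold change -0.10), where 8.01% of all genes fell and 5.48% rose. In replicates 2 and 3 alone 5 fell and 1 rose, beside 2026 falling and 1732 rising of all 14836 genes. The gene that rose there was the integrin chain ITGA6, picked out once its values were known. Its blocked log2 fold change was 0.17 (edgeR adjusted p = 0.07). No test of the list was made. The syndecan SDC1, a heparan sulfate proteoglycan of the cell surface, fell to 56.1 CPM in knockdown cells, against 99.4 CPM in control cells (-0.87 ± 0.08, SE, edgeR adjusted p = 0.00059). The collagen receptor kinase DDR1 (-0.82), the laminin receptor BCAM (-0.66) and the integrin chain ITGB4 (-1.45) fell as well, with adjusted p of 0.004, 0.015 and 0.03. ITGB4 had 3.99, 0.182 and 0.343 CPM in knockdown replicates 1 to 3, against 11.9, 0.849 and 0.313 CPM in control replicates 1 to 3, so pair 3 went the other way. SDC4 and ITGA2, picked out once their values were known, completed the falls (-0.41 and -0.38). The integrin chains ITGA3 (-0.10, adjusted p = 0.26) and ITGB1 (-0.08, adjusted p = 0.51) did not pass.

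Enzymes that make and export these proteins moved in both directions. Of 17 tested genes of collagen folding, hydroxylation and export, 3 rose and 2 fell (median log2 fold change 0.07), where 5.48% of all genes rose and 8.01% fell. The lysyl hydroxylases PLOD2 (0.41 ± 0.08, SE) and PLOD3 (0.34 ± 0.06) rose, with edgeR adjusted p of 0.014 and 0.012. P3H2, a prolyl 3-hydroxylase that acts on collagen IV, fell to 12.5 CPM in knockdown cells, against 24.0 CPM in control cells (-0.98 ± 0.19, adjusted p = 0.013), and the prolyl 4-hydroxylase subunit P4HA2 fell by 0.51 on the log2 scale (adjusted p = 0.027). The remaining rise was PRDX4 (0.25), picked out once its values were known. P4HB (-0.09, adjusted p = 0.39) and CRTAP (0.02, adjusted p = 0.84) did not pass.

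Of 9 tested dystroglycan glycosylation genes 1 rose and 2 fell (median log2 fold change -0.02), beside the same 5.48% rising and 8.01% falling over all genes. RXYLT1 (0.53) rose and POMGNT2 (-0.49) and POMK (-0.44) fell, with edgeR adjusted p of 0.014, 0.022 and 0.031, while POMGNT1 (0.09) did not pass. Of 15 tested heparan sulfate synthesis genes 1 rose and 3 fell (median -0.05), beside those same shares over all genes. The polymerase subunits EXT1 (0.32) and EXT2 (-0.21) were called in opposite directions, with adjusted p of 0.034 and 0.049, and the sulfotransferases HS6ST2 (-0.66) and NDST1 (-0.35) fell, with adjusted p of 0.0036 and 0.0095. EXTL3 (0.004) and HS2ST1 (-0.13) did not pass. Without the replicate block edgeR called 0 genes in each of these lists.

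Some markers of other cell types moved with the knockdown in the same blocked fit. Of 8 endothelial markers 3 were tested and CDH5 fell (-1.38), and the 8 summed to 54.4 to 58.1 CPM in knockdown libraries and 126 to 166 CPM in control libraries, nearly all of it CDH5, while ERG and EMCN averaged 0.0225 and 0.0309 CPM. Of 8 epithelial markers 3 were tested, KRT18 rose (0.49) and CLDN4 fell (-1.40), and the sums were 1083 to 1479 CPM in knockdown and 746 to 1348 CPM in control libraries, with GRHL2 at 0 and CDH1 at 0.0114 CPM. Of 8 fibroblast markers 2 were tested and FAP fell (-0.91), with sums of 3.50 to 4.59 CPM in knockdown and 6.82 to 7.08 CPM in control libraries and DCN at 0. Immune markers, none of them tested, summed to 0.332 to 1.03 CPM in knockdown libraries and 0.960 to 1.27 CPM in control libraries. Their part in the basement membrane differences was not tested.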

How the data were processed

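RNA-seq was measured in 6 Mum-2b libraries. The authors deposited raw counts per gene and FPKM values, both with gene names, coordinates and lengths, per the file headers; the submitters' processing notes name hg38. Aligner, counting tool and strand setting were not given in the sources used here. Each deposited FPKM equalled count over gene length over 1 constant per library, 0.9816 to 1.0735 times the library's total counts. Coordinates and exonic lengths of the 10 genes matched GENCODE release 29.

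Counts were tested with edgeR 4.0.16 in R 4.3.3 (filterByExpr, TMM, robust quasi-likelihood F-test, Benjamini-Hochberg over all genes tested, called at adjusted p under 0.05), without a replicate term and with the replicate number as a block. SE is the absolute log2 fold change over the root of F. Libraries with the same number shared deviations from the mean of their group (correlations 0.839, 0.629 and 0.616 for numbers 1 to 3). Those means include replicate 1, which stood apart in both groups, so all 3 correlations can follow from replicate 1. The difference of replicates 2 and 3 was not shared between the groups (correlation -0.005). By the data, not the labels, number 1 thus matched across the groups, and a pairing of numbers 2 and 3 was not shown. The common biological coefficient of variation was 32.6% unblocked (4 residual degrees of freedom) and 8.2% blocked (2). CPM use TMM-scaled library sizes; likeness used log2 CPM with a prior count of 2. DESeq2 1.42.0, limma 3.58.1, other scalings, no filter and left-out libraries were alternatives. Poisson intervals (95%) cover counting error only. P-values measure the spread between these libraries, which may be technical.

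The 10 genes and the other lists were chosen with earlier results of these data known. Per list, up to 4 passing genes of at least 1 CPM with the largest fold changes and up to 2 non-passing genes of highest expression are named; some genes that this rule selects are not reported here. The procedure was tested on simulated data.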

Additional observations from a re-analysis of the deposited data

Results flagged for a closer look

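In 7 of the 10 genes the knockdown difference in replicate pair 1 departed from that in pairs 2 and 3 by edgeR's interaction test, where 13% of all genes did. The log2 interaction was -0.6035 for LAMC1, -1.3537 for LAMA4, -0.3043 for COL4A2, -0.3026 for LAMA5, -0.394 for NID1, -0.3207 for COL4A1 and -0.1875 for AGRN. All 7 were negative, with the share of negative signs over all genes not counted: knockdown relative to control was lower in pair 1. For NID1, which fell, that was 55.7% of control in pair 1, beside 71.6% and 74.9% in pairs 2 and 3. What sets replicate 1 apart is not given in the labels, and no cause was tested. Groups of 3 libraries were too small for the test of single outlying samples.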

How the results depend on the processing

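Without a replicate term edgeR called 0 of the 10 genes and 0 of all genes, also with RLE size factors or no filter, and so did limma-voom. DESeq2 called 2 of the 10, beside 50 rising and 111 falling of all 14844 genes. With the replicate block edgeR called 4, where 13.5% of all genes were called. The count was also 4 with DESeq2, limma-voom, RLE size factors or no filter, and with replicate 1 as a batch term. Over all 14844 genes, blocked DESeq2 called 446 rising and 912 falling, and the batch term 1379 rising and 1738 falling. Blocked limma-voom called 860 rising and 1270 falling of all 14844, and blocked RLE 771 and 1269. Without a filter the blocked fit called 1118 rising and 1770 falling of all 32102. Upper-quartile scaling with the block called 5, adding LAMA5, beside 1198 rising and 986 falling of all 14844 genes. Log2 FPKM plus 1 or plus 0.1 with the block called 1 (NID1). Over all genes, plus 1 called 213 rising and 362 falling, and plus 0.1 called 246 and 439. Replicates 2 and 3 alone called 9, where 25.3% of all genes were called. Leaving out a single library, without the block, gave 0 of the 10 and 0 of all genes. With the block, leaving out pair 1 gave 9, beside 1877 rising and 2213 falling of all 14836 genes. Leaving out pair 2 gave 3 (307 rising and 625 falling of all 15296), and so did leaving out pair 3 (650 and 1110 of all 15221). Leaving out libraries for replicate 1, for the interaction and for the LAMA4 share was added after seeing the data. For replicate 1 against the others, leaving out a library of replicate 2 or 3 gave 5 of the 10. The count changed when either library of replicate 1 was left out, which leaves a single library on that side, so those counts are not given. The interaction was called for 2 by DESeq2, whose share over all genes was not counted. The LAMA4 share was 2.85% in knockdown and 1.14% in control libraries by counts without length correction.

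LAMA4, LAMB1 and NID1 kept their direction in all 23 alternatives each. The direction of LAMC1 reversed to 0.0123 with the replicate block, 0.0122 with the batch term, 0.2135 in replicates 2 and 3, 0.0132 with limma-voom, 0.0032, 0.0071, 0.0026 and 0.0595 in blocked DESeq2, limma-voom, RLE and upper-quartile fits, and -0.1929 to 0.3084 with libraries or pairs left out. NID2 reversed to 0.0995 in replicates 2 and 3, to 0.0297 with upper-quartile scaling and up to 0.1193 with libraries left out (lowest -0.2037). With libraries or pairs left out, log2 fold changes ran from -0.0594 to 0.516 for LAMA5, -0.027 to 0.1736 for COL4A1, -0.017 to 0.1449 for COL4A2, -3.2462 to 0.2065 for HSPG2 and -0.1972 to 0.4584 for AGRN. The cause was not tested. Depth limited NID2 and, in replicates 2 and 3, HSPG2.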
